A study of Mus musculus with 12 samples.

Results

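The solute carriers that move inorganic ions and metals were followed in Lgr5-GFP+ cells of the mouse intestinal epithelium, in Apc+/+, ApcFlox/+ and ApcFlox/Flox mice. Members were all gene symbols of the families Slc4a, Slc8, Slc9a, Slc11a, Slc12a, Slc20a, Slc24a, Slc26a, Slc30a, Slc31a, Slc34a, Slc39a, Slc40a and Slc41a, apart from Slc12a2. Of 14305 usable symbols 63 matched, and 60 of these reached at least 1 FPKM (a fragment count divided by the length of the transcript and by library size) in at least 4 of the 12 libraries. Slc12a5, Slc20a2 and Slc8a1 did not, with highest values of 3.003, 0.889 and 0.835 FPKM. Slc4a1ap, Slc9a3r1 and Slc9a3r2 matched by name, but they encode an adaptor protein and the scaffolds NHERF1 and NHERF2 and transport nothing themselves.

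RNA was sequenced from random-primed libraries of 12 C57BL/6 mice, 4 per genotype, all carrying Lgr5-CreERT2-ires-eGFP, an allele in which the Lgr5 promoter drives both a tamoxifen-dependent Cre and the GFP used for sorting. Libraries of Apc+/+ mice are called Apc_WT, those of ApcFlox/+ mice Apc_HET, and those of ApcFlox/Flox mice Apc_KO. Every mouse, controls included, had 1 tamoxifen injection and 5 days of tamoxifen diet, and GFP+ cells were sorted at day 15. The labels give no sex, age, batch or date, and they do not say which segment of the intestine was used.

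The Apc protein keeps beta-catenin low, and its loss turns on Wnt target genes in crypt cells. Intestinal epithelium absorbs sodium chloride through apical sodium/proton exchangers paired with chloride/bicarbonate exchangers, and it secretes chloride and bicarbonate from crypts. Metals enter through apical importers such as Slc11a2 (iron) and Slc39a4 (zinc) and leave the cell or enter organelles through exporters such as Slc40a1 (iron) and the Slc30 family (zinc).

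Promoter windows of 5 members with large differences are printed first, since the results below keep returning to these genes. They are RefSeq windows on GRCm38.p6, from 250 bases before to 50 bases after an annotated start, written 5′ to 3′ on the gene's own strand, and capitals mark matches to the metal response element searched as TGCACNC or TGCGCNC on either strand. Slc9a3 (chr13:74121163-74121462, plus strand) encodes the apical exchanger NHE3, Slc30a2 (chr4:134343216-134343515, plus) a vesicular zinc transporter, Slc12a4 (chr8:105966066-105966365, minus) the potassium-chloride cotransporter KCC1, Slc26a3 (chr12:31437969-31438268, plus) the apical chloride/bicarbonate exchanger DRA, and Slc39a5 (chr10:128401175-128401474, minus, the outer of 2 windows) the basolateral zinc importer ZIP5.
Slc9a3: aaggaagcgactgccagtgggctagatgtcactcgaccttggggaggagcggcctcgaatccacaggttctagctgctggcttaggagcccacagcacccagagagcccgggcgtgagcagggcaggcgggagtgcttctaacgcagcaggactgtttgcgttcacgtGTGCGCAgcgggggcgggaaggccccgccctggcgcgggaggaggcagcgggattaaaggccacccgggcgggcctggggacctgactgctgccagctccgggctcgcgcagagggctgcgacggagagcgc
Slc30a2: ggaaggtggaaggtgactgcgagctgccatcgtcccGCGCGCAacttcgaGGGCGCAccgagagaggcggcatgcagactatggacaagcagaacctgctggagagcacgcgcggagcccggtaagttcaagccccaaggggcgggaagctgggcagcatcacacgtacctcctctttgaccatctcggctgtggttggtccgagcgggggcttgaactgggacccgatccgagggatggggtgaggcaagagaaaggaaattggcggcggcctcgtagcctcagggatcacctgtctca
Slc12a4: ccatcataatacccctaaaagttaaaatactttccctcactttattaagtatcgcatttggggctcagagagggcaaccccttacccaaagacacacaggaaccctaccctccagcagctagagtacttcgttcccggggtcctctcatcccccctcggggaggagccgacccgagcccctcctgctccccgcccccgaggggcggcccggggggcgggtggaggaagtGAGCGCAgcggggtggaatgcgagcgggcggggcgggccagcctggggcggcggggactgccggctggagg
Slc26a3: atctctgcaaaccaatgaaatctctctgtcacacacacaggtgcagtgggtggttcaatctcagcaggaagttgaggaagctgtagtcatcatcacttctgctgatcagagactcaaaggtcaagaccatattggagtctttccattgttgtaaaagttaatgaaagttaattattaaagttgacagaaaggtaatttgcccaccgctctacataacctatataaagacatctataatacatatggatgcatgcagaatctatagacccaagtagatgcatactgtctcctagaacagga
Slc39a5: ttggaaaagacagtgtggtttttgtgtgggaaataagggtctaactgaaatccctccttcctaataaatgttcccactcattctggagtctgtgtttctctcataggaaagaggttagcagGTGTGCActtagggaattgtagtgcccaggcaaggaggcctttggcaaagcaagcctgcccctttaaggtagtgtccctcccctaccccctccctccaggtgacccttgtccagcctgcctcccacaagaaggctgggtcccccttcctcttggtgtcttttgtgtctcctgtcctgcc
Of the 60 members, 47 had a window. The metal response letters were present in at least 1 window of 26 of them (55.3%), against 40.2% of the 9267 tested genes with a window and 25.7% of all 32851 windows. They were in 8 of 14 members that rose in Apc_KO against Apc_WT, 8 of 17 that fell and 10 of 16 that did not pass. The TCF/LEF letters ATCAAAG, bound by the partners of beta-catenin, were in none of the 47 and in 3.23% of tested genes, and the HNF4A letters CAAAGTCCA were in none and in 0.615%. The CDX2 letters TTTATNG were in 5 members (10.6%) and in 8.65% of tested genes. These matches describe 300 bases and are not binding sites. The windows printed for Slc30a2 and Slc26a3 lie inside the annotated genes, which start at 134343181 (chromosome 4) and 31390871 (chromosome 12). Both marked Slc30a2 matches are thus downstream of that gene start.

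Lgr5 was present in every library, at 20.2 to 31.6 FPKM in Apc_WT and Apc_HET and 27.0 to 65.4 in Apc_KO. The Wnt target Notum averaged 0.233 ± 0.119 FPKM in Apc_WT and 303 ± 49.9 in Apc_KO (SD, n = 4). Apc itself averaged 8.89 ± 1.64, 11.01 ± 1.11 and 13.8 ± 3.18 FPKM in Apc_WT, Apc_HET and Apc_KO (SD, n = 4), as 1 value for the whole gene, which does not measure the deletion. Total FPKM ran from 391710 to 518428. Relative depth, read from the steps of low values, ran from 0.431 to 0.88 of Apc_WT library 1 in the 9 libraries where it could be determined, and absolute depth is unknown. Summed FPKM of 16 enterocyte markers ran from 1785 to 4546 for Apc_WT, 724 to 2129 for Apc_HET and 302 to 499.9 for Apc_KO, and all 16 fell in Apc_KO against Apc_WT. Of the other epithelial markers, 8 of 9 goblet and 8 of 9 enteroendocrine genes fell, 3 of 4 tuft genes fell while Avil rose (log2 difference 2.77), 2 of 6 Paneth genes rose and 2 fell, and of 11 stem cell genes 7 rose while Olfm4 fell. The summed FPKM of the tuft list was 24.3 to 31 for Apc_WT and 59 to 115 for Apc_KO, mostly Avil in Apc_KO. Leukocyte markers summed to at most 12.1 FPKM in any library, with Ptprc at 1.10 or less. Stroma and endothelium markers summed to 8.91 to 26.4 for Apc_WT, 20.8 to 88.3 for Apc_HET and 154 to 174 for Apc_KO, mostly Vim, with Cdh5 and Pdgfra at or near 0 in Apc_WT. Those 3 rose in Apc_KO against Apc_WT, and Pdgfrb fell (log2 difference −1.25). In sorted bulk RNA, fewer cells of a type and less RNA per cell cannot be told apart. The part of these markers in the results on the members was not tested.

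Between Apc_KO and Apc_WT the carriers moved in both directions. By limma on log2(FPKM + 1), at a Benjamini-Hochberg adjusted p under 0.05 over 13177 genes, 18 of the 60 members rose (30%, against 27.9% of all genes), 22 fell (36.7%, against 17.6%) and 20 did not pass. At least 2-fold on that scale, 13 members rose (21.7%, against 12% of all genes) and 8 fell (13.3%, against 7.96%). The median log2 difference was −0.06 over the members and 0.12 over all genes. The libraries of the 2 genotypes did not overlap for 37 of 60 members and for 40.4% of all genes. Of these, 7 members and 454 of the 13177 genes were kept apart by the level filter itself. Slc12a4, Slc26a4, Slc26a9, Slc4a11, Slc4a3, Slc9a4 and Slc9a9 passed the level filter only through Apc_KO and so had to be higher there, as were all 454 genes that entered that way. Among the 46 members at 1 FPKM or more in all 12 libraries, 10 rose (21.7%, against 25% of 10603 such genes) and 19 fell (41.3%, against 16.4%). At least 2-fold, 5 of those 46 rose (10.9%, against 6.84%) and 6 fell (13%, against 6.1%). Of the other 187 solute carrier symbols tested, under the same filter as the 60 members, 42 were higher (22.5%) and 76 lower (40.6%). With median-of-ratios size factors the members divided into 15 higher and 24 lower and all genes into 3042 and 2765, against 3681 and 2325 without them, and the median of all genes moved to 0.03.

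**Figure D1:**
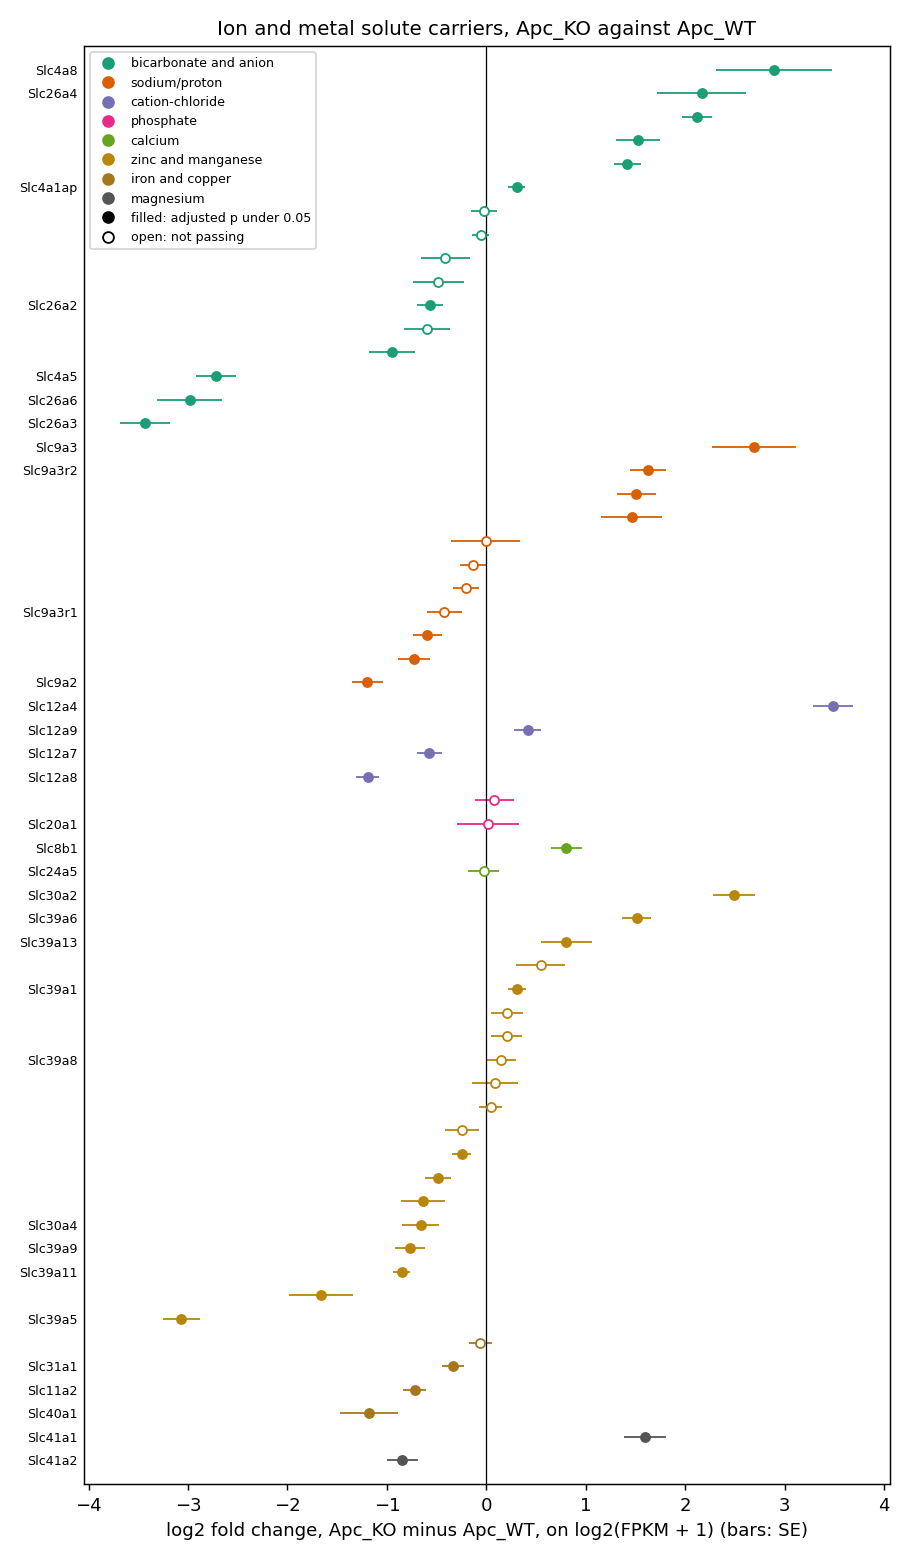
Log2 differences of the 60 tested carriers on log2(FPKM + 1), Apc_KO minus Apc_WT (x axis), ordered within transport groups (y axis); points are limma estimates from 4 libraries per genotype, bars are SE, filled points have an adjusted p under 0.05, and names stand beside 32 of the points. The differences run from −3.43 for Slc26a3 to 3.49 for Slc12a4, and most groups hold points on both sides of 0.

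Among the 16 bicarbonate and anion members, 6 rose (37.5%, against 27.9% of all genes) and 5 fell (31.2%, against 17.6%) in Apc_KO against Apc_WT. The other 5 did not pass. Slc26a4, Slc26a9, Slc4a11 and Slc4a3 passed the level filter only through Apc_KO and so had to be higher there. The 3 deepest falls were those of the exchangers Slc26a3 and Slc26a6 and of the sodium bicarbonate cotransporter Slc4a5. Slc26a3, the DRA exchanger that absorbs chloride and releases bicarbonate, measured 25.5, 30.4, 23.7 and 41.1 FPKM in Apc_WT libraries 1 to 4, 25.3, 19.4, 15.9 and 36.0 in Apc_HET, and 1.09, 2.24, 2.07 and 2.07 in Apc_KO. Every Apc_KO library lay far under every other library, and Apc_HET overlapped Apc_WT. Slc26a3 fell by 3.43 ± 0.25 (SE) on log2(FPKM + 1) against Apc_WT (limma, adjusted p = 4.94e-07) and by 3.09 against Apc_HET (limma, adjusted p = 1.28e-06). The deposited locus covered 49.0% of the annotated gene (chromosome 12, 31390871 to 31473917, GRCm38).

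Slc26a6 (PAT1), an exchanger of chloride for bicarbonate and oxalate and the most abundant anion member in Apc_WT, was at 37.2, 45.6, 52.3 and 77.2 FPKM in Apc_WT, 42.4, 26.1, 16.4 and 45.1 in Apc_HET, and 3.44, 8.02, 6.79 and 5.05 in Apc_KO. The Apc_KO libraries were again all lowest, while Apc_HET libraries 2 and 3 lay under all of Apc_WT and libraries 1 and 4 within it. Slc26a6 fell by 2.98 ± 0.33 (SE, log2) against Apc_WT (limma, adjusted p = 1.46e-05) and by 2.24 against Apc_HET (limma, adjusted p = 0.000164). Summed over Slc26a3 and Slc26a6, the apical exchangers came to 83.2 ± 24.2 FPKM in Apc_WT, 56.6 ± 21.9 in Apc_HET and 7.69 ± 2.47 in Apc_KO (SD, n = 4). Enterocyte markers were lower in the same libraries. Across Apc_WT and Apc_HET, Slc26a3, Slc26a6 and the marker sum were all lowest in Apc_HET library 3 (sum 724) and highest in Apc_WT library 4 (sum 4546). The part of this marker level in the falls was not tested.

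Slc4a5, a sodium bicarbonate cotransporter, was at 10.6, 9.43, 7.21 and 12.7 FPKM in Apc_WT, 8.88, 9.25, 8.64 and 9.29 in Apc_HET, and 0.195, 0.636, 1.39 and 0.553 in Apc_KO. It was near 9 FPKM in all Apc_HET libraries and at 1.39 FPKM or less in all Apc_KO libraries. Any part of the enterocyte level in these values was not tested. Slc4a5 fell by 2.72 ± 0.20 (SE, log2) against Apc_WT (limma, adjusted p = 6.32e-07), and the log2 difference from Apc_HET was −2.61. Slc26a2, the sulfate transporter, measured 13.6, 10.96, 12.4 and 11.8 FPKM in Apc_WT, 13.9, 12.1, 13.3 and 14.1 in Apc_HET, and 10.1, 8.59, 7.13 and 6.23 in Apc_KO. The genotypes Apc_KO and Apc_WT did not overlap, and Slc26a2 fell by 0.57 ± 0.13 (SE, log2; limma, adjusted p = 0.00394). Slc26a10, whose deposited locus spans only 3.77% of the gene, also fell (log2 difference −0.95).

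Slc4a8, a sodium-driven chloride/bicarbonate exchanger, varied widely between libraries of 1 genotype and had the largest SE of the members. It measured 1.21, 1.72, 1.02 and 2.70 FPKM in Apc_WT, 12.05, 14.2, 8.10 and 1.88 in Apc_HET, and 34.4, 35.7, 14.7 and 5.74 in Apc_KO. All Apc_KO libraries were above Apc_WT, and in Apc_HET 3 libraries lay above Apc_WT while library 4 lay within it. Slc4a8 rose by 2.89 ± 0.58 (SE, log2) in Apc_KO against Apc_WT (limma, adjusted p = 0.00154), and Apc_KO against Apc_HET did not pass (1.18, limma, adjusted p = 0.127). Without Apc_KO library 4 that last difference was 1.69 and passed (limma, adjusted p = 0.0237). The stroma and endothelium marker sum was 49.7, 88.3, 48.6 and 20.8 in Apc_HET libraries 1 to 4. In Apc_KO it was 169, 174, 157 and 154, so library 4 was only slightly lower than library 3 there. The part of this sum in the Slc4a8 values was not tested. The deposited locus spans 6.78% of the gene (chromosome 15, 100761747 to 100823968), so the value rests on a small stretch of it.

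Slc26a4, the anion exchanger pendrin, was at 0.0992 to 0.211 FPKM in Apc_WT, 0.116 to 0.247 in Apc_HET, and 17.0, 1.64, 3.13 and 2.68 in Apc_KO. All 4 Apc_KO libraries were higher, as the level filter required, and library 1 stood apart from the other Apc_KO libraries. It rose by 2.17 ± 0.45 on log2(FPKM + 1) (SE; limma, adjusted p = 0.00184), and by 4.01 with a pseudocount of 0.1 in place of 1. Slc4a11 (log2 difference 2.12), Slc4a3 (1.53) and Slc26a9 (1.42) rose likewise from below 0.14 FPKM in every Apc_WT library, a direction also fixed by that filter. Slc4a1ap, the adaptor, rose slightly, from 5.87, 6.06, 5.54 and 5.53 FPKM in Apc_WT and 6.04, 6.23, 6.11 and 5.94 in Apc_HET to 7.10, 7.31, 7.07 and 7.88 in Apc_KO (log2 difference 0.30 ± 0.09 SE; limma, adjusted p = 0.0123). That call was lost with size factors (adjusted p = 0.0604), quantile normalization (0.345) or a fit of the 2 genotypes alone (0.0596), all by limma. The housekeeping exchanger Slc4a2 (AE2) was at 30.0 ± 1.58 FPKM in Apc_WT and 28.9 ± 1.55 in Apc_KO (SD, n = 4; limma, adjusted p = 0.632) and was the most abundant anion member in Apc_KO. The other 4 members that did not pass, Slc4a4, Slc4a7, Slc4a10 and Slc26a11, had log2 differences from −0.60 to −0.02.

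Of 14 partner genes of chloride and bicarbonate secretion tested, 3 rose (21.4%) and 9 fell (64.3%) in Apc_KO against Apc_WT, and 2 did not pass. Of all genes, 27.9% rose and 17.6% fell. Cftr, the apical chloride channel, fell from 53.3 ± 6.31 to 13.3 ± 4.49 FPKM (SD, n = 4; log2 difference −1.98; limma, adjusted p = 1.22e-05). Car4, a membrane carbonic anhydrase, fell from 56.2 ± 17.3 to 1.75 ± 1.07 (−4.40; limma, adjusted p = 3.03e-06), whereas cytosolic Car2 rose from 4.47 ± 1.23 to 17.4 ± 4.32 (1.74; limma, adjusted p = 3.00e-05). Guca2a, which encodes the secretory peptide guanylin, fell as well (−3.26).

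**Figure D2:**
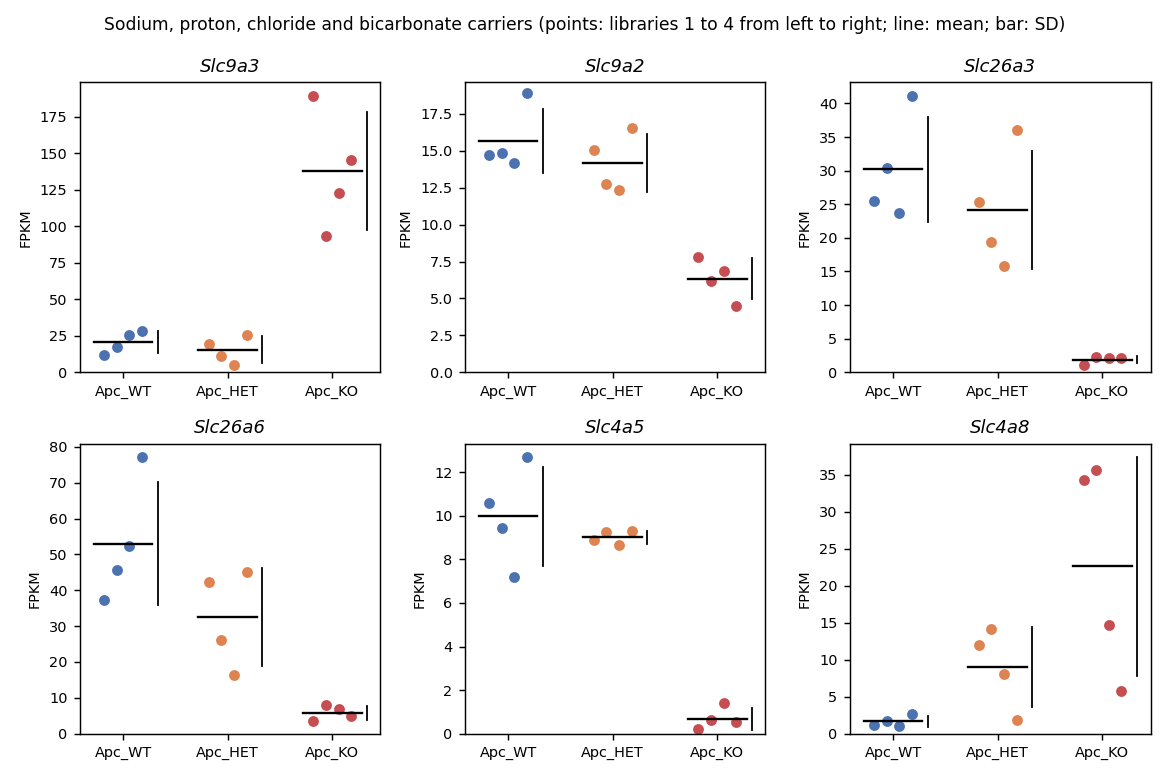
FPKM (y axis, from 0) of apical and other exchangers in the 4 libraries of each genotype (x axis; points from left to right are libraries 1 to 4, the line is the mean and the bar the SD). Slc9a3 lies at 93.3 to 189 FPKM in Apc_KO and at 28.4 or less elsewhere, whereas Slc26a3 and Slc26a6 are at 8.02 or less in Apc_KO and at 15.9 or more elsewhere.

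Of the 11 sodium/proton members and scaffolds, 4 rose (36.4%, against 27.9% of all genes), 3 fell (27.3%, against 17.6%) and 4 did not pass. Among the rises, Slc9a4 and Slc9a9 passed the level filter only through Apc_KO and so had to be higher there. Slc9a3 (NHE3), the apical exchanger that absorbs sodium alongside Slc26a3 and Slc26a6, measured 11.9, 17.4, 25.4 and 28.4 FPKM in Apc_WT, 19.7, 11, 5.00 and 25.9 in Apc_HET, and 189, 93.3, 123 and 145 in Apc_KO. The lowest Apc_KO library, at 93.3, was far above the highest of any other genotype, at 28.4. Slc9a3 rose by 2.70 ± 0.42 (SE, log2) against Apc_WT (limma, adjusted p = 0.000245) and by 3.25 against Apc_HET (limma, adjusted p = 6.39e-05). Its gene lies on chromosome 13 from 74121457 to 74169442 (GRCm38), inside a deposited locus that also holds Exoc3, and 2 rows were summed for it. Within Apc_WT and Apc_HET the Slc9a3 level was lowest in Apc_HET library 3 and highest in Apc_WT library 4, like the enterocyte sum. In Apc_KO, Slc9a3 was at 93.3 to 189 FPKM and that sum at 302 to 499.9. The part of the enterocyte level in the Slc9a3 values was not tested.

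**Figure D3:**
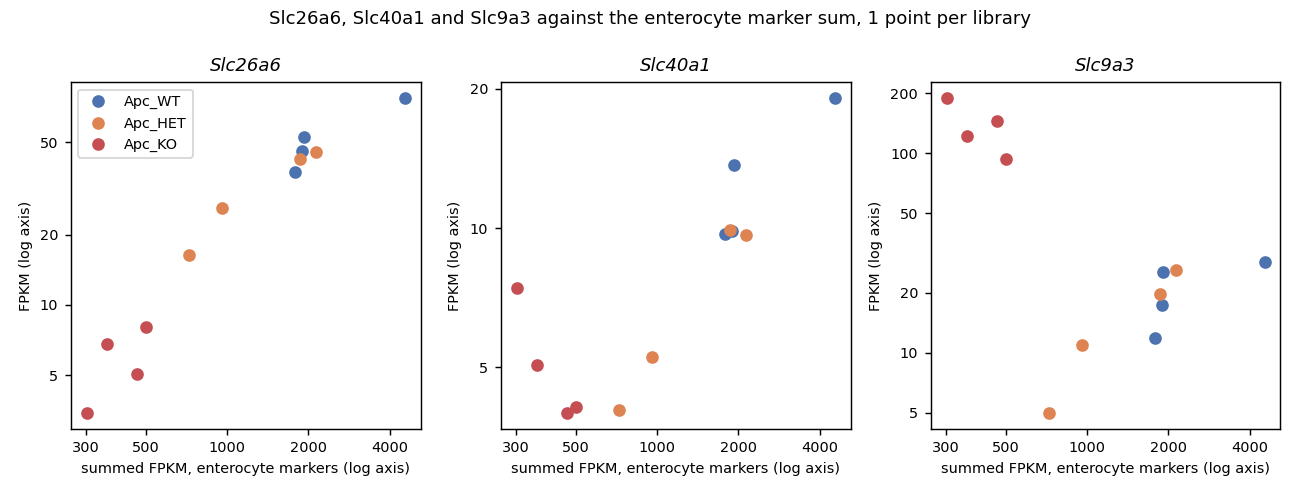
FPKM of Slc26a6, Slc40a1 and Slc9a3 (y axes, log) against the summed FPKM of 16 enterocyte markers (x axis, log), 1 point per library and colors by genotype. The Apc_KO libraries, with sums of 302 to 499.9, are low for Slc26a6 and Slc40a1 and high, at 93.3 to 189 FPKM, for Slc9a3.

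Slc9a2 (NHE2), another apical exchanger, was at 14.7, 14.9, 14.2 and 18.9 FPKM in Apc_WT, 15.0, 12.8, 12.4 and 16.5 in Apc_HET, and 7.81, 6.15, 6.84 and 4.52 in Apc_KO. All Apc_KO libraries were below all others, and Slc9a2 fell by 1.20 ± 0.15 (SE, log2; limma, adjusted p = 5.26e-05). Among Apc_WT and Apc_HET it was lowest in Apc_HET library 3 and highest in Apc_WT library 4, like the enterocyte sum, whose part was not tested. The ratio of Slc9a3 to Slc9a2 FPKM was 0.808, 1.17, 1.79 and 1.501 in Apc_WT, 0.404 to 1.57 in Apc_HET, and 24.2, 15.2, 17.96 and 32.1 in Apc_KO. Slc9a5 also fell (−0.72). Slc9a4 (1.51) and Slc9a9 (1.46) rose from under 1 FPKM, a direction fixed by the level filter. For Slc9a4 the deposited loci differed between the genotypes' tables.

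The scaffolds that hold Slc9a3 at the membrane did not move alike. Slc9a3r2 (NHERF2) was at 1.01, 1.23, 1.01 and 0.925 FPKM in Apc_WT, 1.29, 0.966, 1.12 and 0.714 in Apc_HET, and 5.34, 4.76, 3.83 and 8.09 in Apc_KO. Every Apc_KO library was above every other one, and Slc9a3r2 rose by 1.63 ± 0.18 (SE, log2; limma, adjusted p = 1.54e-05). Slc9a3r1 (NHERF1), the most abundant member of the group in Apc_WT, measured 96.0, 98.2, 112 and 158 FPKM there, 110.2, 81.8, 85.9 and 94.8 in Apc_HET, and 66.8, 100.1, 92.2 and 82.5 in Apc_KO. The genotypes overlapped and the difference of −0.42 did not pass (limma, adjusted p = 0.0711), although it did with size factors (−0.52, adjusted p = 0.0268) and quantile normalization (−0.45, adjusted p = 0.0323). The exchangers Slc9a7 and Slc9a8 did not pass, with log2 differences of 0.00 and −0.14. Slc9a7 spread from 10.8 to 38.4 FPKM within Apc_WT on a locus of 13.8% of the gene. Of 8 other sodium and potassium genes tested, none rose (against 27.9% of all genes) and 5 fell (62.5%, against 17.6%). Among those that fell were the potassium channels Kcnn4 (log2 difference −1.51), Kcnk5 (−1.48) and Kcnq1 (−0.61), and the sodium channel subunit Scnn1a (−1.14).

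All 4 cation-chloride members passed, 2 in each direction (50%, against 27.9% of all genes higher and 17.6% lower). Of the 2 rises, that of Slc12a4 was fixed by the level filter, which it passed only through Apc_KO. Slc12a4 (KCC1), which carries potassium and chloride out of cells during volume regulation, was nearly absent outside Apc_KO. It was at 0.0541, 0.0651, 0.0580 and 0.0567 FPKM in Apc_WT, 0.125, 0.184, 0.215 and 0.0136 in Apc_HET, and 17.9, 11.1, 8.36 and 8.27 in Apc_KO. Slc12a4 rose by 3.49 ± 0.20 on log2(FPKM + 1) against Apc_WT (SE; limma, adjusted p = 9.21e-08) and by 3.39 against Apc_HET (limma, adjusted p = 1.26e-07). With a pseudocount of 0.1 the differences were 6.11 and 5.64, since the added 1 hides most of a rise from so low a level.

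Slc12a7 (KCC4), the potassium-chloride cotransporter present in all genotypes, was at 37.8, 40.2, 48.2 and 44.7 FPKM in Apc_WT, 42.6, 41.7, 38.0 and 41.4 in Apc_HET, and 31.2, 26.7, 33.9 and 22.7 in Apc_KO. It fell by 0.57 ± 0.13 (SE, log2; limma, adjusted p = 0.00261) without overlap. Slc12a4 was 0.120% to 0.162% of the summed FPKM of both cotransporters in Apc_WT, 0.0329% to 0.563% in Apc_HET, and 36.4%, 29.4%, 19.8% and 26.7% in Apc_KO. Slc12a8, a family member linked to nicotinamide mononucleotide uptake, was at 27.8, 33.1, 31.9 and 29.4 FPKM in Apc_WT, 27.5, 33.2, 35.1 and 26.2 in Apc_HET, and 11.9, 12.5, 15.1 and 11.8 in Apc_KO. It fell by 1.19 ± 0.12 (SE, log2; limma, adjusted p = 6.32e-06), and Apc_HET overlapped Apc_WT. Slc12a9 measured 9.21, 9.73, 10.1 and 9.46 FPKM in Apc_WT, 11.01, 10.7, 12.2 and 7.98 in Apc_HET, and 14.7, 10.7, 12.6 and 15.1 in Apc_KO. Its rise of 0.42 ± 0.14 (SE, log2; limma, adjusted p = 0.0253) was lost with size factors (limma, adjusted p = 0.0814), quantile normalization (0.104), array weights (0.0783) and in the fits without Apc_KO library 1 (0.0574), Apc_KO library 4 (0.0542), or Apc_WT library 1 (0.0613), 2 (0.0502) or 4 (0.0550).

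Of the 19 zinc and manganese members, 4 rose (21.1%, against 27.9% of all genes), 8 fell (42.1%, against 17.6%) and 7 did not pass. Slc30 proteins move zinc out of the cytosol and Slc39 proteins move it in. Slc30a2 (ZnT2), which loads zinc into secretory vesicles and granules, was at 13.6, 10.7, 10.3 and 15.3 FPKM in Apc_WT, 11.96, 14.04, 12.4 and 16.2 in Apc_HET, and 102, 70.2, 86.4 and 47.8 in Apc_KO. All Apc_KO libraries were far above the rest, and Slc30a2 rose by 2.49 ± 0.21 (SE, log2) against Apc_WT (limma, adjusted p = 1.67e-06) and by 2.36 against Apc_HET (limma, adjusted p = 2.88e-06). The deposited locus also holds Extl1. Slc30a2 made up 9.11% to 11.98% of the summed Slc30 FPKM in Apc_WT and 37.2% to 49.6% in Apc_KO, while that sum was 118 ± 7.84 in Apc_WT, 120.0 ± 12.8 in Apc_HET and 168 ± 31.9 in Apc_KO (SD, n = 4). Paneth cells are known for zinc-rich granules, and of 6 Paneth markers Pla2g2a and Mmp7 rose and Defa24 and Itln1 fell. The part of such cells in the Slc30a2 values was not tested.

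Slc39a5 (ZIP5) had the deepest fall of the zinc group. It measured 60.3, 71.7, 59.1 and 83.6 FPKM in Apc_WT, 63.7, 56.8, 48.8 and 63.4 in Apc_HET, and 4.70, 8.32, 9.85 and 6.99 in Apc_KO. From the most abundant zinc member in Apc_WT it went to a level below every other library, with log2 differences of −3.07 ± 0.19 (SE) from Apc_WT (limma, adjusted p = 1.36e-07) and of −2.84 from Apc_HET (limma, adjusted p = 2.83e-07). Its share of summed Slc39 FPKM was 21.5% to 30.6% in Apc_WT and 2.08% to 4.83% in Apc_KO, and the sum was 262 ± 19.5, 242 ± 14.2 and 208 ± 11.9 in Apc_WT, Apc_HET and Apc_KO (SD, n = 4). The locus also holds Ankrd52. Among Apc_WT and Apc_HET, Slc39a5 was lowest in Apc_HET library 3 and highest in Apc_WT library 4, like the enterocyte sum. The part of that sum in the Slc39a5 values was not tested.

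Slc39a6 (ZIP6), a plasma membrane zinc importer, was at 2.64, 1.88, 2.91 and 2.41 FPKM in Apc_WT, 2.61, 2.87, 3.45 and 2.84 in Apc_HET, and 10.97, 8.07, 9.56 and 7.07 in Apc_KO. It rose by 1.51 ± 0.15 (SE, log2) with no overlap (limma, adjusted p = 5.59e-06). Its deposited locus also holds Elp2. Slc39a1 (ZIP1) rose less, from 32.3, 35.6, 39.8 and 34.4 FPKM in Apc_WT and 34.6, 33.6, 35.5 and 32.1 in Apc_HET to 42.8, 41.2, 46.9 and 45.6 in Apc_KO (0.31 ± 0.09 SE; limma, adjusted p = 0.0125), a call lost with size factors (limma, adjusted p = 0.0681) and in a fit of the 2 genotypes alone (0.0510). Slc39a13 (ZIP13), a zinc carrier of the Golgi, was at 4.55, 4.96, 7.07 and 5.28 FPKM in Apc_WT, 5.08, 5.23, 4.38 and 8.13 in Apc_HET, and 17.5, 9.08, 6.43 and 10.3 in Apc_KO. Apc_KO library 3 lay within the other genotypes, and the rise of 0.80 ± 0.25 (SE, log2; limma, adjusted p = 0.0213) was lost without Apc_WT library 1 (limma, adjusted p = 0.0580) or 2 (0.0516) and with quantile normalization (0.0687).

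Slc39a11 (ZIP11) varied little within Apc_KO. It was at 28.6, 31.7, 35.1 and 29.7 FPKM in Apc_WT, 30.6, 29.1, 25.6 and 28.1 in Apc_HET, and 16.8, 17.1, 16.4 and 17.0 in Apc_KO, and it fell by 0.85 ± 0.09 (SE, log2; limma, adjusted p = 9.29e-06). Slc39a9 (ZIP9) measured 22.3, 21.5, 23.0 and 22.1 FPKM in Apc_WT, 21.2, 19.9, 17.5 and 23.4 in Apc_HET, and 12.3, 13.7, 16.5 and 8.99 in Apc_KO, and it fell by 0.77 ± 0.15 (SE, log2; limma, adjusted p = 0.00125). Apc_KO lay below all other libraries for both. The vesicular transporter Slc30a4 (ZnT4) was at 17.0, 15.4, 13.3 and 16.9 FPKM in Apc_WT, 15.0, 15.6, 14.2 and 19.4 in Apc_HET, and 13.7, 9.47, 9.96 and 6.20 in Apc_KO. Apc_KO library 1 overlapped Apc_WT library 3, and Slc30a4 fell by 0.66 ± 0.19 (SE, log2; limma, adjusted p = 0.0117). The manganese exporter Slc30a10 (log2 difference −1.66), the plasma membrane zinc exporter Slc30a1 (−0.64), Slc39a3 (−0.48) and Slc30a5 (−0.25) fell as well, of which Slc30a1 and Slc30a5 lost the call in some alternatives.

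The apical zinc importer Slc39a4 (ZIP4), known for its role in dietary zinc uptake, was at 33.8 ± 6.86 FPKM in Apc_WT and 38.7 ± 4.08 in Apc_KO (SD, n = 4), and the difference of 0.20 did not pass (limma, adjusted p = 0.322). The other 6 that did not pass were Slc30a6, Slc30a7, Slc30a9, Slc39a8, Slc39a10 and Slc39a14, with log2 differences from −0.24 to 0.55. None of 9 other zinc and copper genes passed, while 27.9% of all genes rose and 17.6% fell. The metallothioneins Mt1 and Mt2, which bind zinc and copper, averaged 307 ± 104 and 53.5 ± 37.0 FPKM in Apc_WT and 534 ± 376 and 179 ± 153 in Apc_KO (SD, n = 4; limma, adjusted p = 0.222 and 0.0948), with a wide spread in Apc_KO.

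**Figure D4:**
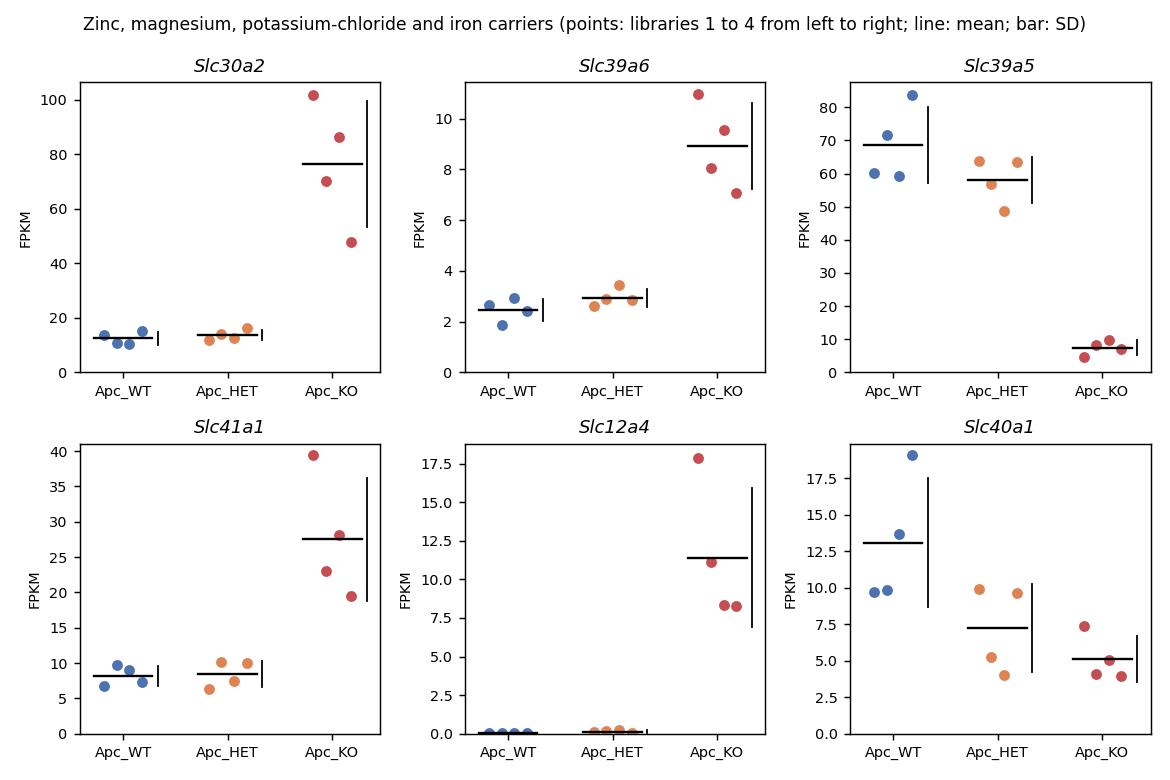
FPKM (y axis, from 0) of 6 metal and ion carriers in the 4 libraries of each genotype (x axis; points from left to right are libraries 1 to 4, the line is the mean and the bar the SD). Slc30a2, Slc39a6, Slc41a1 and Slc12a4 are higher in all 4 Apc_KO libraries than in any other, Slc39a5 is lower, and for Slc40a1 the Apc_HET and Apc_KO libraries overlap.

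Among the 4 iron and copper members 3 fell (75%, against 17.6% of all genes), 1 did not pass and none rose (against 27.9%). Slc40a1 (ferroportin), the basolateral iron exporter, was at 9.70, 9.84, 13.7 and 19.1 FPKM in Apc_WT, 9.91, 5.26, 4.03 and 9.67 in Apc_HET, and 7.40, 4.10, 5.05 and 3.98 in Apc_KO. Apc_KO lay below Apc_WT without overlap, and Apc_HET spanned the gap between them. Slc40a1 fell by 1.18 ± 0.29 (SE, log2) in Apc_KO against Apc_WT (limma, adjusted p = 0.00528), and its difference between Apc_KO and Apc_HET of −0.38 did not pass (limma, adjusted p = 0.328). Like Slc26a6, it was lowest in Apc_HET library 3 and highest in Apc_WT library 4 among these 2 genotypes, the libraries with the lowest and highest enterocyte sums, whose part was not tested.

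Slc11a2 (DMT1), the apical iron importer, measured 22.5, 23.8, 25.1 and 26.0 FPKM in Apc_WT, 22.3, 20.9, 20.2 and 19.3 in Apc_HET, and 14.2, 14.9, 17.4 and 11.5 in Apc_KO. The 3 genotypes did not overlap and stood in the order Apc_WT, Apc_HET, Apc_KO. Slc11a2 fell by 0.72 ± 0.11 (SE, log2) in Apc_KO against Apc_WT (limma, adjusted p = 0.000265) and by 0.50 against Apc_HET (limma, adjusted p = 0.00415), whereas Apc_HET against Apc_WT did not pass (−0.23, limma, adjusted p = 0.987). Slc31a1 (CTR1), the copper importer, was at 36.2, 36.8, 38.1 and 38.5 FPKM in Apc_WT, 36.5, 32.4, 28.4 and 38.5 in Apc_HET, and 27.1, 32.9, 32.0 and 26.1 in Apc_KO. It fell by 0.34 ± 0.11 (SE, log2; limma, adjusted p = 0.0267), a call lost without Apc_WT library 2 (limma, adjusted p = 0.0506), 3 (0.0581) or 4 (0.0621), without Apc_KO library 1 (0.0540) or 4 (0.0519), and with array weights (0.0988). Slc31a2 did not pass (−0.06).

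Of 15 other iron genes tested, 4 rose (26.7%, against 27.9% of all genes), 6 fell (40%, against 17.6%) and 5 did not pass. Heph, the ferroxidase that works with Slc40a1, fell from 16.8 ± 1.97 to 3.50 ± 0.650 FPKM (SD, n = 4; log2 difference −1.99; limma, adjusted p = 3.40e-07), and Epas1, a hypoxia-inducible factor known to drive intestinal iron uptake genes, fell from 7.35 ± 1.57 to 1.54 ± 0.317 (−1.71; limma, adjusted p = 1.04e-05). The apical ferric reductase Cybrd1 rose from 0.586 ± 0.133 to 3.24 ± 0.852 (1.40; limma, adjusted p = 2.04e-05), and the heme-degrading enzyme Hmox1 rose from 3.25 ± 1.48 to 15.3 ± 6.99 (1.90; limma, adjusted p = 0.00215).

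The 2 magnesium members moved in opposite directions. Slc41a1, a sodium/magnesium exchanger of the plasma membrane, was at 6.77, 9.68, 9.01 and 7.29 FPKM in Apc_WT, 6.26, 10.1, 7.44 and 9.99 in Apc_HET, and 39.4, 23.1, 28.1 and 19.5 in Apc_KO. Each Apc_KO library was above all others, and Slc41a1 rose by 1.60 ± 0.21 (SE, log2; limma, adjusted p = 6.33e-05). Slc41a2 measured 3.05, 3.53, 4.21 and 4.41 FPKM in Apc_WT, 3.09, 2.21, 1.87 and 3.33 in Apc_HET, and 1.86, 1.68, 1.69 and 1.39 in Apc_KO. It fell by 0.85 ± 0.16 (SE, log2) against Apc_WT (limma, adjusted p = 0.00083) and by 0.43 against Apc_HET (limma, adjusted p = 0.0431), the latter lost without Apc_WT library 2 or 3, Apc_HET library 1, 2 or 4, or Apc_KO library 2, 3 or 4, in a fit of the 2 genotypes and with array weights (limma, adjusted p from 0.0506 to 0.129). The ratio of Slc41a1 to Slc41a2 was 1.65 to 2.74 for Apc_WT, 2.03 to 4.55 for Apc_HET and 13.7 to 21.2 for Apc_KO. Among Apc_WT and Apc_HET, Slc41a2 was lowest in Apc_HET library 3 and highest in Apc_WT library 4, like the enterocyte sum, whose part was not tested.

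Of the 2 calcium members, Slc8b1, the mitochondrial sodium/calcium exchanger, was at 2.28, 2.93, 2.43 and 2.30 FPKM in Apc_WT, 2.53, 2.53, 2.90 and 2.12 in Apc_HET, and 6.28, 3.45, 4.97 and 6.06 in Apc_KO. It rose by 0.81 ± 0.16 (SE, log2; limma, adjusted p = 0.00132) without overlap, and by 0.53 after quantile normalization (limma, adjusted p = 0.027). Slc24a5 did not pass (−0.03). Of 9 other calcium and magnesium genes 1 rose (11.1%, against 27.9% of all genes), 4 fell (44.4%, against 17.6%) and 4 did not pass. The magnesium channel Trpm6 rose from 0.492 ± 0.0833 to 2.90 ± 1.09 FPKM (SD, n = 4; 1.35; limma, adjusted p = 6.67e-05), and the vitamin D receptor Vdr fell from 175 ± 12.6 to 12.3 ± 8.18 (−3.95; limma, adjusted p = 2.75e-06). Mcu, the pore of the mitochondrial calcium uniporter, fell from 53.2 ± 3.92 to 23.6 ± 3.50 (−1.15; limma, adjusted p = 1.96e-05).

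Neither phosphate member passed. Slc20a1 (PiT-1) was at 8.63, 4.25, 4.87 and 6.93 FPKM in Apc_WT, 7.73, 5.17, 6.85 and 6.73 in Apc_HET, and 10.1, 7.08, 6.91 and 2.46 in Apc_KO, with a log2 difference of 0.02 (limma, adjusted p = 0.972) and its widest spread within Apc_KO. Slc34a2 was below 1.34 FPKM in every library. Of 8 other phosphate and sulfate genes 1 rose (12.5%, against 27.9% of all genes) and 5 fell (62.5%, against 17.6%). Among the falls was the intestinal alkaline phosphatase Alpi, which is also an enterocyte marker (−3.43, limma, adjusted p = 0.000315). The sulfate-activating enzyme Papss2 fell too (−1.77, limma, adjusted p = 0.0129).

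No member passed between Apc_HET and Apc_WT, by limma at an adjusted p under 0.05 (0 of 60), against 0.0531% or 7 of all genes. At an unadjusted p under 0.05 there were 4 members (6.67%), against 4.42% of all genes, and the median log2 difference was −0.02 over the members and 0.07 over all genes. When symbols whose loci differed between the tables were left out, 0 of all genes passed. The members of lowest p were Slc4a8 (1.71 ± 0.58 SE), Slc40a1 (−0.81 ± 0.29 SE), Slc41a2 (−0.41 ± 0.16 SE) and Slc26a6 (−0.74 ± 0.33 SE), all with a limma adjusted p of 0.987. After Slc4a8, the members with the smallest p among those higher in Apc_HET were Slc24a5 (0.25), at 0.432 to 1.07 FPKM in Apc_WT and 0.900 to 1.26 in Apc_HET, and Slc39a8, a zinc and manganese importer (0.21), at 13.8 to 18.4 and 15.4 to 23.2. Slc11a2 was the member whose Apc_HET and Apc_WT libraries did not overlap, 1 of 60 against 6.15% of all genes.

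Between Apc_KO and Apc_HET, 16 members rose (26.7%, against 22.9% of all genes), 19 fell (31.7%, against 18.9%) and 25 did not pass, by limma. The 7 members that entered only through Apc_KO are among these rises too. Among the 46 members at 1 FPKM or more in all 12 libraries, 8 rose (17.4%, against 19.6% of such genes) and 16 fell (34.8%, against 17.5%). There was no overlap for 35 members, against 39.4% of all genes. The same 7 members are among these 35, kept apart by the level filter. The comparison shares the Apc_KO libraries with that against Apc_WT, and 35 members passed in both. The 5 that passed against Apc_WT alone were Slc4a8, Slc40a1, Slc31a1, Slc12a9 and Slc30a5. Summed over the 60 members, FPKM came to 973 ± 85.4 in Apc_WT, 881 ± 73.3 in Apc_HET and 956 ± 106 in Apc_KO (SD, n = 4). Libraries of all 3 genotypes overlapped in these sums.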

How the data were processed

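RNA of Lgr5-GFP+ cells was measured in 12 libraries, 4 per genotype. The deposited values are FPKM per assembled locus, per the file headers. Per the submitters' processing notes the tools were Bowtie and TopHat, then Cufflinks and Cuffdiff, with the build mm10 (GRCm38); their versions, the annotation and filters are not given in the sources used here. FPKM is not a count, so no count model was used. Rows without a gene name held 1.01% to 9.67% of a library's FPKM and were left out. Rows of a symbol were summed. Of 14499 symbols, 69 absent from a table and 125 with a failed estimate were left out. Depth was read as relative steps only, so no counting intervals are given.

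Symbols with at least 1 FPKM in at least 4 libraries, 13177 in all, entered a single limma fit (version 3.58.1, R 4.3.3) of log2(FPKM + 1) over the 12 libraries, with a trended eBayes, two-sided tests, Benjamini-Hochberg adjustment within each of 3 comparisons and calls under 0.05. Log2(FPKM + 1) understates changes of genes near 0. The script was tested on simulated data. The labels do not state that same-numbered libraries belong together. The p-values set the difference between genotype means against the spread between these libraries.

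Named members were, in each transport group, up to 4 called in each direction in Apc_KO against Apc_WT whose higher genotype averaged at least 5 FPKM, plus the most abundant member, and the 3 of smallest p in each direction in Apc_HET against Apc_WT. From each list of other genes up to 4 called ones are given. A few values under these rules are not reported here. Slc4a2, Slc39a4, Slc9a7, Kcnq1, Mt1, Mt2, Notum and the joined symbols were named after their values were seen. The members and all lists were chosen with earlier results of these data known. For 14 tested members the deposited locus covers under 80% of the annotated gene. For 16 it holds another coding gene, whose reads the files do not separate. Besides Slc9a3, Slc30a2, Slc39a5 and Slc39a6, these include Slc39a13 (Psmc3), Slc39a9 (Erh), Slc31a1 (Cdc26), Slc12a9 (Trip6), Slc24a5 (Myef2), Slc4a1ap (Supt7l), Slc4a2 (Fastk) and Slc11a2 (Gm5475). Promoter windows come from RefSeq (GRCm38.p6). Alternatives were size factors, quantile normalization, the pseudocount, filters, the fit of 2 genotypes, array weights, a replicate block, the locus rule and leaving out each library.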

Additional observations from a re-analysis of the deposited data

Results flagged for a closer look

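Within each genotype, the highest and lowest library of the 33 members chosen by the naming rule was compared with the other 3, as the gap to the nearest divided by the whole range, against Dixon's 95% critical value for 4 samples. Of 99 such groups 3 exceeded it, and chance flags about 1 in 20. Slc26a4 was at 17.0 FPKM in Apc_KO library 1 and at 1.64 to 3.13 in the others (gap 0.903 of the range). Slc26a3 was at 1.09 FPKM in Apc_KO library 1 and at 2.07 to 2.24 in the others (0.851). Slc9a2 was at 18.9 FPKM in Apc_WT library 4, the library with the highest enterocyte marker sum, and at 14.2 to 14.9 in the others (0.864).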

How the results depend on the processing

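In Apc_KO against Apc_WT, 33 of the 40 called members kept their call in every alternative that tested them, out of 22. These 33 include the 7 members that passed the level filter only through Apc_KO and so had to be higher there. Slc12a9, Slc30a1, Slc30a5, Slc31a1, Slc39a1, Slc39a13 and Slc4a1ap lost their call in at least 1 alternative. No named member changed direction with a call. Against Apc_HET, the calls of Slc39a13 and Slc41a2 were each lost in several alternatives, and that of Slc4a1ap in most of them. The Slc4a1ap call was lost without any 1 of the Apc_WT or Apc_HET libraries, and without Apc_KO library 2, 3 or 4. It was also lost with size factors, quantile normalization, the 5 FPKM filter, the fit of 2 genotypes and the replicate block. Slc12a9 gained a call without Apc_KO library 2 (0.41; limma, adjusted p = 0.0315), and Slc24a5 gained one with quantile normalization (−0.45; limma, adjusted p = 0.0393). Requiring 5 FPKM in 4 libraries left 43 members, of which 10 rose and 19 fell, since fewer members were tested, and 7 rose against Apc_HET. A filter on the mean over 12 libraries, added after seeing the data, left 54 members with 16 higher and 21 lower. Quantile normalization gave 15 higher and 26 lower members, a members' median of −0.31, and 2798 higher and 3098 lower genes in all. Leaving out 1 library gave 16 to 19 higher and 19 to 23 lower members against Apc_WT, 14 to 16 higher and 17 to 21 lower against Apc_HET, and 0 to 0 between Apc_HET and Apc_WT. With the replicate number as a block, 19 rose and 19 fell against Apc_WT, 16 rose and 17 fell against Apc_HET, and 0 passed between Apc_HET and Apc_WT. With that block Slc31a1 against Apc_WT (adjusted p = 0.0585) and Slc41a2 (0.0753) and Slc4a1ap (0.0886) against Apc_HET did not pass by limma, and no other named member changed its call. The numbers did not pair the libraries: deviations of same-numbered libraries correlated from −0.189 to 0.169 over 12 pairs, and 2 of 12 libraries correlated best with their own number. Differences of genes near 0 FPKM are limited by the pseudocount, and low-level members by the unknown depth.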

Other observations

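Carriers of the same families also appear under symbols joined with a neighbouring gene, which were not counted as members. The joined symbol of Gm17491 and Slc20a2, a phosphate transporter, was at 17.5 to 22.4 FPKM for Apc_WT, 17.1 to 20.4 for Apc_HET and 22.3 to 26.7 for Apc_KO. That of Mettl17 and the zinc importer Slc39a2 was at 20.4 to 24.1, 22.3 to 23.5 and 19.04 to 27.8 FPKM. These values cannot be assigned to one gene of each locus.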
